A study of Mus musculus with 24 samples.

Results

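The Nodal and Lefty pathway was represented by 7 genes, Nodal, Lefty1, Lefty2, Tdgf1, Gdf3, Foxh1 and Cer1, which were found by their symbols in an expression table that held counts for 21553 genes. The set was chosen by a measured value, the rise of Lefty2 in slow/slow embryonic stem cells (ESCs), together with the known membership of the other 6 genes in the same pathway. Poly(A)+ RNA had been sequenced from mouse cells at 4 stages of neural differentiation, with 3 replicates for each genotype and stage and 24 samples in all. WT cells were ESCs of the E14 line, and slow/slow cells had been derived from that line by 2 rounds of gene targeting, so that both alleles of Polr2a, the gene of the largest subunit of RNA polymerase II, carry R749H, a substitution that slows elongation. The stages were ESCs grown in 2i medium with LIF, neural progenitors (NPCs) taken on day 7, PSA-NCAM+ cells purified on beads on day 10, and mature neurons, replated at day 7 and grown for 14 more days. WT cells had been plated for differentiation at 10000 cells per cm2 and slow/slow cells at 30000, so that genotype and plating density cannot be told apart after the ESC stage. The slow/slow cells are thus a derived line compared with its parent, and a gene count does not read the substitution itself.

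Nodal is a secreted ligand of the TGF-beta family that binds activin receptors together with a co-receptor, Tdgf1 (also called Cripto), and signals through Smad2, Smad3 and Smad4. Foxh1 is a DNA-binding protein that brings the activated SMADs to target genes, and these include Nodal itself and its own inhibitors, Lefty1 and Lefty2. The Lefty proteins and Cer1 are secreted antagonists, and Gdf3 is a related ligand that also needs Tdgf1. In the embryo the pathway maintains the epiblast, forms mesoderm and endoderm and sets the left side of the body, and its inhibition favours neural fate.

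The members are short genes. In the GENCODE annotation of the GRCm38 assembly Nodal lies on the + strand of chromosome 10, from 61417972 to 61425338, with 3 exons. Lefty2 and Lefty1 are neighbours on the + strand of chromosome 1, from 180893108 to 180899103 and from 180935022 to 180938400, and each has 4 exons. Tdgf1 lies on the - strand of chromosome 9 from 110939603 to 110946158, and Gdf3 on the - strand of chromosome 6 from 122605403 to 122610087. Foxh1 lies on the - strand of chromosome 15 from 76668225 to 76669948, and Cer1 on the - strand of chromosome 4 from 82881751 to 82885148. Their spans ran from 1724 bases for Foxh1 to 7367 for Nodal, and only 2.4% to 19.6% of the genes tested were shorter than a given member, against a median span of 23164 bases. No annotated gene overlapped any of the 7.

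Lefty1 and Lefty2 are similar in sequence, which bears on whether reads can be assigned to the right gene. Their coding sequences, without the stop codon, were both 1104 bases long and were identical at 91.8% of the bases. The longest identical run was 140 bases, and a read from within it fits both genes. The aligned stretch of 90 bases with the most mismatches, bases 35 to 124 with 27 differing bases in capitals, is shown, as the part where reads separate them best.
Lefty2, most different: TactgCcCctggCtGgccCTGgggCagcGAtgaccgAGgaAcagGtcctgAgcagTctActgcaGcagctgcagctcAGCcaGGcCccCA
Lefty1, most different: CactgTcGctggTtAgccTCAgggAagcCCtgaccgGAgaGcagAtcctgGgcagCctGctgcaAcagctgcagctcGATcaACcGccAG
Of the 2404 windows of 70 bases, slightly shorter than a read, in the main Lefty2 transcript, 193 (8.03%) also occurred in the main Lefty1 transcript. How the counting treated such reads was not given in the sources used here, so a part of the Lefty1 and Lefty2 counts is uncertain.

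Promoter sequences, 250 bases before to 50 after the start site, were given by RefSeq on GRCm38.p6 for Nodal, Tdgf1 and Cer1, 3 of the 7 members. They were searched on both strands for TGTGGAT, a FOXH1-type motif, and CAGAC, a SMAD-type motif, neither of which contains the other. The SMAD-type motif began 213 bases before the start of Cer1 and 113 bases before that of Tdgf1, and neither motif was found for Nodal. Such matches are common, as 49.5% of the 32544 promoters held the SMAD-type motif and 3.4% the FOXH1-type motif. The 250 bases before the start are shown for Cer1, an antagonist, and for Nodal, the ligand it binds, since their levels went opposite ways in neurons, with the motif in capitals. Cer1 is on the - strand and Nodal on the + strand.
Cer1: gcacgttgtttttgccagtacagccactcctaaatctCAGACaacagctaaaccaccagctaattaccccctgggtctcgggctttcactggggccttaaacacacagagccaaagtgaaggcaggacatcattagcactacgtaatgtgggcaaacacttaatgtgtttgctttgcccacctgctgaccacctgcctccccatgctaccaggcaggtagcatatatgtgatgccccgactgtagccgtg
Nodal: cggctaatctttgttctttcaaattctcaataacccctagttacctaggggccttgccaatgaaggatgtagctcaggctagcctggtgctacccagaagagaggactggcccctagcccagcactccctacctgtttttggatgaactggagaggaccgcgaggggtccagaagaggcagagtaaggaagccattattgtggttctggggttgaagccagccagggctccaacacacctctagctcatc

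Total counts per sample ranged from 32974432 to 104466886, and values are given as CPM, counts scaled to library size with TMM factors, with the samples in the order of their replicate numbers. A log2 change divides slow/slow by WT cells and comes with its standard error (SE), and FDR is the adjusted p of edgeR's quasi-likelihood test over all 16627 genes that passed the filter on low counts. All 7 members passed it, but Cer1 passed only through slow/slow PSA-NCAM+ cells and neurons of both genotypes, where it was high. Comparisons of Cer1 with other groups are therefore given as counts without a test, and the members called are counted over the other 6. The PSA-NCAM+ libraries spread more than the others, with replicate 1 of both genotypes farthest from its group: the mean difference to the group over genes was 0.496 for WT and 0.688 for slow/slow cells on the log2 scale, against 0.162 to 0.256 in all other stages. At this stage the genotype changes of the 6 members other than Cer1 are therefore also given without these libraries. Values of single other genes are not. Each sample is a bulk culture, in which fewer cells of a type and less RNA per cell cannot be told apart. The p-values rest on the spread between cultures of 1 line per genotype, 3 per group, pooled over all 8 groups in 1 model. That spread was unequal, with a median SD of log2 CPM from 0.0776 in WT neurons to 0.315 in slow/slow PSA-NCAM+ cells. The methods call the cultures independent differentiation experiments for ESCs, NPCs and neurons.

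The antagonists Lefty2 and Lefty1 differed most between genotypes among the 6 members with enough counts in ESCs. In WT ESCs Lefty2 stood at 6.71, 7.75 and 7.37 CPM, and in slow/slow ESCs at 151.6, 169.7 and 161.6 CPM. The slow/slow libraries all lay far above the WT libraries, a log2 difference of 4.47 ± 0.20 that selected the set and is given without a test. Lefty1 had 1.00, 1.43 and 1.31 CPM in WT ESCs and 21.8, 28.5 and 24.7 CPM in slow/slow ESCs, again without overlap, a log2 difference of 4.34 ± 0.37 from the same comparison. Cer1 was at 2, 0 and 0 counts in WT and 2, 2 and 0 counts in slow/slow ESCs, too few for a fold. Of the other members in ESCs, Tdgf1 was lower in slow/slow cells by a log2 change of -0.39 ± 0.15, Foxh1 by -0.26 ± 0.19 and Nodal by -0.20 ± 0.11, while Gdf3 was higher by 0.38 ± 0.18. In this comparison, which chose the members, 3 of the 6 members other than Cer1 passed an FDR of 0.05, as did 40.4% of all genes tested, and nothing is read from that count.

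In NPCs, which the choice of members did not use, both Lefty genes were again higher in slow/slow cells. Lefty2 had 5.80, 5.96 and 6.46 CPM in WT and 62.0, 69.8 and 55.6 CPM in the slow/slow NPCs. The genotypes did not overlap, and the gene rose 10.3-fold, a log2 change of 3.36 ± 0.19 (FDR = 5.88e-11). Lefty1 had 17.8, 16.9 and 20.6 CPM in WT and 200.9, 227.1 and 191.0 CPM in slow/slow NPCs. It rose 11.2-fold, by 3.48 ± 0.32 on the log2 scale (FDR = 3.29e-08). Cer1 was barely detected at this stage, with 0, 0 and 4 counts in WT and 6, 8 and 5 counts in slow/slow NPCs. All 3 slow/slow libraries lay above the WT libraries in counts. In all, 3 of the 6 members were called in NPCs, each of them higher in slow/slow cells, where 56.7% of all genes tested were called in either direction.

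In PSA-NCAM+ cells the antagonists stayed apart between genotypes. Lefty2 had 8.24, 7.29 and 7.95 CPM in WT and 33.7, 40.5 and 34.5 CPM in slow/slow cells. It was 4.63-fold higher, a log2 change of 2.21 ± 0.18 (FDR = 6.54e-09), and the change was 2.30 without replicate 1 of both genotypes. Lefty1 had 6.05, 16.3 and 19.7 CPM in WT and 59.2, 98.5 and 94.9 CPM in slow/slow cells. Replicate 1 was the lowest of its group in both genotypes, and the log2 change of 2.60 ± 0.31 (FDR = 8.1e-07) was 2.43 without these libraries. The highest FDR over the alternatives was 0.0125 for Lefty1 and 0.00253 for Lefty2. Cer1 had 3, 1 and 5 counts in WT and 18, 61 and 66 counts in slow/slow cells, or 0.0347, 0.0195 and 0.0814 against 0.368, 0.650 and 0.721 CPM. The slow/slow libraries all lay above the WT libraries, which held few counts.

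In mature neurons all 3 antagonists were low in CPM and still higher in slow/slow cells, and Cer1 passed the filter in each genotype. Lefty2 had 0.645, 0.754 and 0.260 CPM in WT and 2.70, 3.62 and 2.63 CPM in slow/slow neurons. It was 5.71-fold higher, by 2.51 ± 0.23 on the log2 scale (FDR = 2.26e-08). Lefty1 had 2.21, 3.58 and 1.67 CPM in WT and 4.74, 5.86 and 5.29 CPM in slow/slow neurons. Its rise of 1.11 ± 0.33 (FDR = 0.00735) was smaller, and without WT replicate 3 it was 0.86 (FDR = 0.0546, in a range of 0.000841 to 0.0546 over the alternatives). Cer1 had 0.829, 0.401 and 0.703 CPM in WT and 1.67, 1.39 and 1.86 CPM in slow/slow neurons, its highest levels of any stage. It rose by 1.34 ± 0.42 (FDR = 0.0109), a call that was lost without WT replicate 2 (1.10, FDR = 0.062, in a range of 0.000352 to 0.062).

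**Figure D1:**
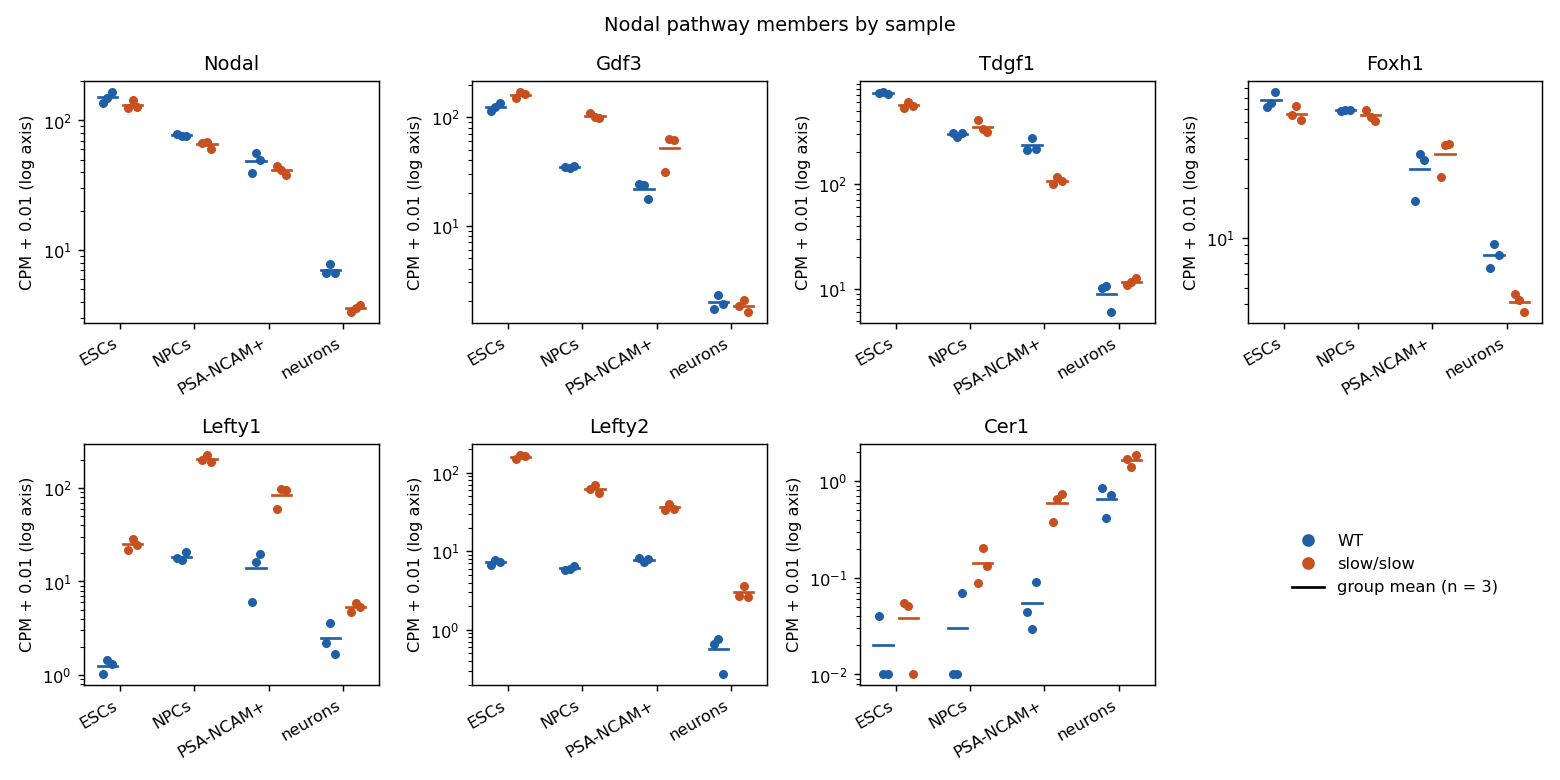
Levels of the 7 members in each of the 24 samples, as CPM with 0.01 added on a log axis, for WT and slow/slow cells at the 4 stages, with a line at the mean of the 3 replicates. Lefty1 and Lefty2 of slow/slow cells lie above those of WT cells at every stage, while Nodal falls from 137 to 166 CPM in WT ESCs to under 8 CPM in neurons of both genotypes.

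The ligand Nodal was not higher in slow/slow cells at any stage. It had 137, 149.5 and 166 CPM in WT and 123.9, 143 and 126 CPM in slow/slow ESCs, which overlapped. In NPCs it stood at 78.6, 75.8 and 75.7 CPM in WT and 67.3, 68.4 and 60.5 CPM in slow/slow cells. The groups did not overlap, but the log2 change of -0.23 ± 0.11 missed the threshold (FDR = 0.0716), and it passed under the other scalings (FDR = 0.0492 and 0.04), with DESeq2 (FDR = 0.0479) and with only these 6 samples in the fit (FDR = 0.000994), in a range of 0.000994 to 0.262. In PSA-NCAM+ cells Nodal had 39.4, 55.7 and 49.9 CPM in WT and 45.0, 41.4 and 37.9 CPM in slow/slow cells. The change of -0.22 ± 0.11 missed the threshold (FDR = 0.0817) with replicate 1 of the genotypes in reverse order to the others. Without these libraries Nodal fell by 0.41 (FDR = 0.00037). It also passed without WT replicate 1 alone (-0.35, FDR = 0.00488), without slow/slow replicate 1 alone (-0.26, FDR = 0.0457) and under upper-quartile scaling (-0.29, FDR = 0.0308), in a range of 0.00037 to 0.543. In neurons the 3 WT libraries held 6.72, 7.78 and 6.73 CPM and the slow/slow libraries 3.35, 3.58 and 3.81 CPM, so that Nodal fell by 0.99 ± 0.12 on the log2 scale (FDR = 8.34e-07).

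Gdf3, the related ligand, went the other way from Nodal in NPCs and PSA-NCAM+ cells. Its WT ESC libraries held 115, 125 and 135 CPM and its slow/slow ESC libraries 151.3, 172 and 164 CPM. In NPCs Gdf3 had 34.8, 34.4 and 35.7 CPM in WT and 109.95, 100.4 and 97.8 CPM in slow/slow cells. It rose 2.94-fold, by 1.56 ± 0.18 (FDR = 7.72e-07). In PSA-NCAM+ cells it had 24.1, 23.9 and 17.5 CPM in WT and 31.1, 62.9 and 61.4 CPM in slow/slow cells. Slow/slow replicate 1 was closest to WT there, and the rise of 1.25 ± 0.18 (FDR = 9.36e-06) was 1.59 without replicate 1 of both genotypes. Over the alternatives its FDR ranged from 4.73e-12 to 0.0267. In neurons Gdf3 had 1.70, 2.26 and 1.89 CPM in WT and 1.82, 2.04 and 1.59 CPM in slow/slow cells, which overlapped. The difference of -0.08 ± 0.22 did not pass (FDR = 0.778), and its sign turned to 0.06 under upper-quartile scaling.

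Tdgf1, the co-receptor, was the highest member per length in WT ESCs, NPCs and PSA-NCAM+ cells, with authors' mean values of 364, 165 and 132 RPKM. It had 739, 754 and 723 CPM in WT and 534, 604 and 556 CPM in slow/slow ESCs. In NPCs Tdgf1 stood at 304, 280.2 and 307 CPM in WT and 406, 332 and 313 CPM in slow/slow cells. That difference of 0.24 ± 0.15 did not pass (FDR = 0.172), except with only these 6 samples in the fit (0.22, FDR = 0.024, in a range of 0.024 to 0.513). In PSA-NCAM+ cells it had 210.5, 272 and 218 CPM in WT against 99.5, 116 and 107 CPM in slow/slow cells. The groups were well apart, and Tdgf1 fell by 1.12 ± 0.15 on the log2 scale (FDR = 2.7e-06), with -1.14 without replicate 1 of both genotypes. The FDR of that fall ranged from 1.11e-12 to 0.00618 over the alternatives. In neurons it had 10.2, 10.6 and 6.06 CPM in WT and 10.9, 11.8 and 12.6 CPM in slow/slow cells. The change of 0.40 ± 0.15 passed narrowly (FDR = 0.0374), and fell to 0.16 without WT replicate 3 (FDR = 0.264). It also missed the threshold without slow/slow replicate 2 (FDR = 0.0769) or replicate 3 (FDR = 0.116), in a range of 0.00687 to 0.264.

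Foxh1, the nuclear partner of the SMADs, differed clearly only in neurons. In ESCs it had 61.9, 64.7 and 75.8 CPM in WT and 55.4, 62.1 and 51.1 CPM in slow/slow cells. In NPCs Foxh1 had 58.4, 59.4 and 59.3 CPM in WT and 59.3, 53.9 and 51.0 CPM in slow/slow cells, a difference of -0.11 ± 0.19 (FDR = 0.64). In PSA-NCAM+ cells it had 16.7, 31.8 and 29.3 CPM in WT and 23.4, 36.1 and 36.5 CPM in slow/slow cells. Replicate 1 was the lowest of both groups, and the difference of 0.31 ± 0.19 (FDR = 0.174) passed without slow/slow replicate 1 (0.51, FDR = 0.0143) or WT replicate 2 (0.50, FDR = 0.0419) but not without replicate 1 of both genotypes (0.25, FDR = 0.0583), in a range of 0.0143 to 0.741. In neurons Foxh1 had 6.60, 9.12 and 7.83 CPM in WT and 4.56, 4.21 and 3.56 CPM in slow/slow cells, and fell by 0.92 ± 0.20 (FDR = 0.000713). Genes on chromosome 15, where Foxh1 lies, were lower as a whole in slow/slow cells: the median log2 change of its 639 tested genes was -0.60 for ESCs, -0.57 for NPCs, -0.56 for PSA-NCAM+ and -0.08 for neuron samples. On the chromosomes of the other 6 members these medians lay between -0.114 and 0.068. The part of that shift in the Foxh1 values was not tested.

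**Figure D2:**
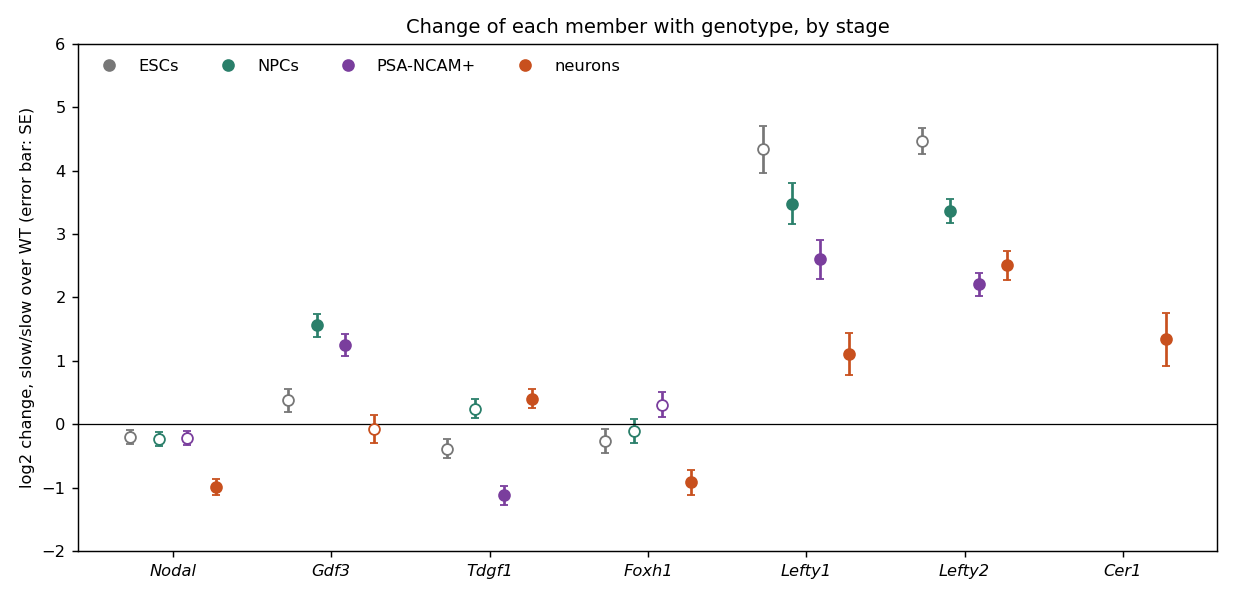
Log2 change of each member, slow/slow over WT, with bars of 1 SE, at the 4 stages. Filled points passed an FDR of 0.05, open points did not or belong to ESCs, where no test is given, and Cer1 has a point in neurons only. The values of Lefty1 and Lefty2 lie between 1.11 and 4.47 at every stage, and those of Nodal between -0.99 and -0.20.

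By stage, 4 of the 6 members were called in PSA-NCAM+ cells, 3 higher and 1 lower, where 56.7% of all genes were called. In neurons 5 of the 6 were called, 3 higher and 2 lower, where 51.9% of all genes were called. With 6 genes these counts say little beyond the values themselves. The median log2 change of the 6 was 0.90 for NPCs, 0.78 for PSA-NCAM+ and 0.16 for neuron samples, beside medians of all genes of 0.00722, -0.00707 and -0.0554. In neurons the split of all called genes depends on the scaling, with 45.2% of them higher in slow/slow cells under TMM and 59.2% under upper-quartile scaling, which moved the median of all genes by 0.14. Upper-quartile scaling also moved the median of all genes by -0.27 from NPCs to neurons in WT and by 0.18 in the interaction of neurons, where 57.3% of the calls were positive in place of 44.9%. No called member changed its direction under it.

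Whether the genotype difference of a member depended on the stage was tested as an interaction, with NPCs as the reference. Between NPCs and PSA-NCAM+ cells 2 of the 6 members were called, beside 14.6% of all genes. For Lefty2 the genotype difference was smaller in PSA-NCAM+ cells than in NPCs, by -1.15 ± 0.25 on the log2 scale (FDR = 0.00456). For Tdgf1 it went from 0.24 in NPCs to -1.12 in PSA-NCAM+ cells, an interaction of -1.36 ± 0.21 (FDR = 0.000267). The interaction of Lefty1, -0.88 ± 0.42, missed the threshold (FDR = 0.164), but passed without WT PSA-NCAM+ replicate 1 (-1.25, FDR = 0.0077) and without replicate 1 of both genotypes (-1.05, FDR = 0.000538), in a range of 0.000538 to 0.418. Between NPCs and neurons 5 of the 6 were called, beside 55.1% of all genes. The genotype difference of Lefty1 shrank by 2.37 ± 0.44 (FDR = 0.000148), and that of Gdf3 by 1.64 ± 0.28 (FDR = 6.77e-05). Nodal shifted by -0.76 ± 0.16 (FDR = 0.00045), Lefty2 by -0.85 ± 0.29 (FDR = 0.02) and Foxh1 by -0.81 ± 0.28 (FDR = 0.0169). The call of Lefty2 was lost under upper-quartile scaling (FDR = 0.0609) and without WT neuron replicate 1 (FDR = 0.0795) or 2 (FDR = 0.133), in a range of 4.15e-05 to 0.133, and that of Foxh1 under upper-quartile scaling (FDR = 0.0609) and without WT neuron replicate 2 (FDR = 0.0508), in a range of 0.000137 to 0.0609. These comparisons share the NPC libraries with the other interaction, and none is given for Cer1, which was near 0 in WT NPCs.

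Between stages the members changed in both genotypes, with Nodal, Tdgf1 and Gdf3 lower in NPCs than in ESCs. The other genes of the pathway lists were not tested between stages. From ESCs to NPCs, Nodal fell by 0.98 ± 0.11 in WT cells (FDR = 1.23e-07) and by 1.00 ± 0.11 in slow/slow cells (FDR = 8.12e-08). Tdgf1 fell by 1.31 ± 0.15 in WT (FDR = 1.84e-07) and by 0.69 ± 0.15 in slow/slow cells (FDR = 0.000388), and Gdf3 by 1.84 ± 0.18 (FDR = 3.6e-08) and 0.66 ± 0.18 (FDR = 0.00314). Lefty1 went the other way, as it rose 15.0-fold in WT cells, by 3.91 ± 0.36 (FDR = 1.2e-08), and 8.25-fold in slow/slow cells, by 3.04 ± 0.31 (FDR = 5.15e-08). Lefty2 did not share that rise: it went from 7.28 ± 0.52 to 6.08 ± 0.34 CPM (SD, n = 3) in WT and from 161 ± 9.08 to 62.4 ± 7.10 CPM in slow/slow cells, values given without a test because those of ESCs chose the set. Foxh1 differed by -0.19 ± 0.19 (FDR = 0.381) in WT and by -0.04 ± 0.19 (FDR = 0.875) in slow/slow cells, and only the WT value passed, with a fit on those 6 samples (FDR = 0.0436, in a range of 0.0436 to 0.651). Of the 5 members with a tested fold, 4 were called in each genotype, and over all genes 65.6% were called in WT and 62.3% in slow/slow cells.

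From NPCs to PSA-NCAM+ cells 3 of the 6 members, Nodal, Gdf3 and Foxh1, were called in WT cells, all lower, where 41.3% of all genes were called. In slow/slow cells all 6 were called, where 42.3% of all genes were. They fell, from -0.66 ± 0.11 for Nodal (FDR = 7.58e-05) to -1.71 ± 0.15 for Tdgf1 (FDR = 1.02e-07), while Cer1 went from 6, 8 and 5 to 18, 61 and 66 counts. All 6 were also called without replicate 1 of both genotypes. WT Lefty2 differed by 0.37 ± 0.18 (FDR = 0.113) and passed with DESeq2 (FDR = 0.0337, in a range of 0.0337 to 0.213). WT Tdgf1 differed by -0.35 ± 0.15 (FDR = 0.0637) and passed under upper-quartile scaling (FDR = 0.0408) and without WT replicate 2 (FDR = 0.0266), in a range of 0.0266 to 0.193. From NPCs to neurons all 6 members were called in both genotypes, where 80.2% of all genes were called in WT and 75.0% in slow/slow cells. In WT the log2 change ran from -2.91 ± 0.33 for Lefty1 (FDR = 7.29e-08) to -5.06 ± 0.18 for Tdgf1 (FDR = 7.62e-16). In slow/slow cells it ran from -3.73 ± 0.21 for Foxh1 (FDR = 4.04e-12) to -5.80 ± 0.23 for Gdf3 (FDR = 1.5e-14). Cer1 went the other way in counts, from 0, 0 and 4 to 54, 25 and 73 in WT and from 6, 8 and 5 to 112, 112 and 68 in slow/slow cells.

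The order of the 8 groups differed between members. Nodal, Tdgf1 and Foxh1 were highest in WT ESCs, at 151 ± 14.2, 739 ± 15.2 and 67.4 ± 7.34 CPM (SD, n = 3), and Gdf3 in slow/slow ESCs, at 162.3 ± 10.3 CPM. Lefty2 was highest in slow/slow ESCs, followed by slow/slow NPCs and slow/slow PSA-NCAM+ cells at 36.2 ± 3.68 CPM, all above every WT group, whose highest value was 7.83 ± 0.48 CPM in PSA-NCAM+ cells. The WT levels of Lefty2 in PSA-NCAM+ cells and ESCs overlapped. Lefty1 was highest in slow/slow NPCs at 206 ± 18.7 CPM, followed by slow/slow PSA-NCAM+ cells at 84.2 ± 21.7 CPM and slow/slow ESCs at 25.0 ± 3.33 CPM, and lowest in WT ESCs at 1.25 ± 0.22 CPM. WT NPCs and WT PSA-NCAM+ cells overlapped for Lefty1, at 18.5 ± 1.92 and 14.0 ± 7.08 CPM. Cer1 was highest in slow/slow neurons at 1.64 ± 0.24 CPM, and WT neurons overlapped with slow/slow PSA-NCAM+ cells for it, at 0.644 ± 0.22 and 0.580 ± 0.19 CPM. Among neighbouring groups WT and slow/slow ESCs overlapped for Nodal, as did WT and slow/slow PSA-NCAM+ cells for Nodal and Foxh1 and WT and slow/slow neurons for Gdf3. Slow/slow PSA-NCAM+ cells and WT NPCs also overlapped for Gdf3, as did WT NPCs with slow/slow ESCs and these with slow/slow NPCs for Foxh1. All other neighbours in the order stood apart, except those of Cer1 from slow/slow NPCs downwards.

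**Figure D3:**
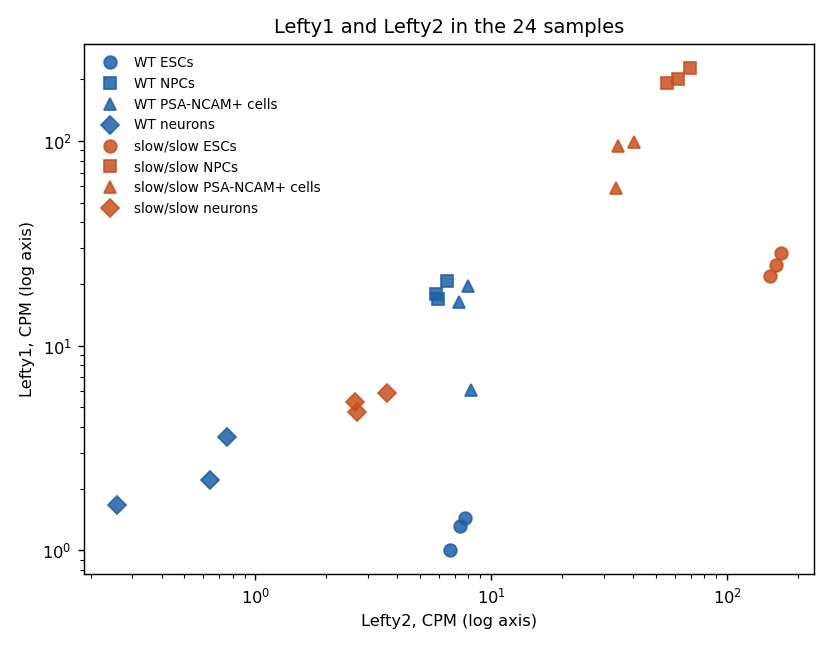
Lefty1 against Lefty2 in the 24 samples, in CPM on log axes, with colour for genotype and shape for stage. With Lefty2 on the x axis, ESCs of both genotypes lie below and to the right of NPCs of the same genotype, with slow/slow ESCs at 22 to 28 CPM of Lefty1 and 152 to 170 CPM of Lefty2, and slow/slow NPCs at 191 to 227 and 56 to 70 CPM.

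Levels of different genes can be compared only per length, and for this the authors' mean RPKM values, reads scaled by gene length and library size, were used, which carry no SD. In WT ESCs the authors' means were 68.0 RPKM for Nodal, 3.67 for Lefty2 and 1.18 for Lefty1. Slow/slow ESCs had 58.0 RPKM of Nodal, 79.7 of Lefty2 and 23.2 of Lefty1. The sum of both Lefty genes was thus 0.0715 times the level of Nodal in WT ESCs and 1.77 times in slow/slow ESCs. For NPCs it was 0.594 times the level of Nodal in WT and 7.69 times in slow/slow cells. PSA-NCAM+ cells had 0.792 and 5.23 times, and neurons 0.825 and 4.03 times. Which of the Lefty genes was higher per length changed with the stage in both genotypes: Lefty1 was at 0.322 times the level of Lefty2 in WT ESCs and 0.291 times in slow/slow ESCs, and at 5.70 and 6.19 times in NPCs. Gdf3 stood at 0.842 times Nodal in WT ESCs and 1.26 times in slow/slow ESCs, and at 0.464 and 1.60 times in NPCs.

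Other genes of the pathway, 38 of which passed the filter on low counts, showed no common direction. Slow/slow NPCs had 13 higher and 12 lower, PSA-NCAM+ cells 16 and 10, and neurons 11 and 15, beside the 56.7%, 56.7% and 51.9% of all genes that were called in either direction. The 26 calls in PSA-NCAM+ cells were 13 with only these samples in the fit, 20 when that fit also held the replicate block and 30 without replicate 1 of both genotypes. The median log2 changes of the 38 genes, -0.01, -0.03 and -0.13, lay near those of all genes. In ESCs, the stage that chose the set, 6 were higher and 10 lower, with a median of -0.14. There 40.4% of all genes passed, and nothing is read from that count. Among the 6 receptors and SMADs tested, Acvr1b, a type I activin receptor, fell by 1.00 on the log2 scale in NPCs, fell by 0.87 in PSA-NCAM+ cells and fell by 0.68 at the neuron stage. Acvr2a, a type II receptor, rose by 0.68 in NPCs (FDR = 2.42e-05) and by 0.88 in PSA-NCAM+ cells (FDR = 8.9e-07) and fell by 0.50 in neurons (FDR = 0.000508). Smad4, the SMAD shared with the BMP branch, was higher at these stages by 0.29, 0.37 and 0.37. Smad2 and Smad3, which carry the Nodal signal, differed by -0.08 and -0.05 in NPCs, and neither passed there, while Smad3 rose by 0.28 in PSA-NCAM+ cells (FDR = 0.0196) and Smad2 fell by 0.53 in neurons (FDR = 5.91e-08). In PSA-NCAM+ cells Smad3 had 73.3, 64.9 and 76.1 CPM in WT and 106, 78.0 and 76.8 CPM in slow/slow cells, with replicate 1 the farthest from WT. Of the 11 negative regulators 4 were higher and 4 lower in NPCs and again in PSA-NCAM+ cells, while 3 of each passed in neurons. Of the 3 convertases, which cut ligand precursors, Pcsk6 had log2 changes of -1.81 in NPCs and -1.76 in PSA-NCAM+ cells and rose by 0.34 in neurons (FDR = 0.0293), and Furin passed at none of the stages. Pcsk5 rose by 0.40 in NPCs (FDR = 0.0288) and by 0.48 in PSA-NCAM+ cells (FDR = 0.00731), and fell by 1.69 in neurons (FDR = 1.29e-08).

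The largest changes among these genes, by a rule of 2 rises and 2 falls per stage, were in mesendoderm targets, activin-binding proteins and an activin subunit. In NPCs Fgf8, a growth factor of the early mesoderm and of brain boundaries, had 1.19, 1.09 and 1.27 CPM in WT and 7.79, 9.31 and 6.83 CPM in slow/slow cells, a rise of 2.75 ± 0.29 (FDR = 1.67e-07). Fst, a secreted activin antagonist, rose by 2.56 ± 0.28 (FDR = 3.05e-07). Gsc, a homeobox target of Nodal, went from 1.29, 1.15 and 1.36 CPM to 0.155, 0.334 and 0.296 CPM, and fell by 2.33 ± 0.31 (FDR = 3.1e-06). Inhbb, an activin subunit, fell by 2.32 ± 0.26 (FDR = 4.13e-07), and in PSA-NCAM+ cells by 2.84 ± 0.27 (FDR = 3.69e-08). Fgf8 rose by 3.34 ± 0.30 in PSA-NCAM+ cells (FDR = 2.37e-08) and Brachyury, the mesoderm factor whose symbol is T, by 2.12 ± 0.23 (FDR = 2.56e-07). Fstl3, another activin-binding protein, fell by 2.53 ± 0.50 (FDR = 0.000237), with WT replicate 1 at 16.9 CPM and the other WT libraries at 2.68 and 3.57.

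In neurons Fstl3 rose by 2.38 ± 0.51 (FDR = 0.0006) and Otx2, a forebrain and epiblast homeobox factor, by 1.78 ± 0.17 (FDR = 6.99e-08). Mixl1, a homeobox factor of the primitive streak, had 7.41, 8.01 and 4.04 CPM in WT and 0.343, 0.286 and 0.576 CPM in slow/slow neurons, and fell by 4.07 ± 0.42 (FDR = 1.32e-07). Brachyury had 77.2, 86.4 and 66.7 CPM in WT and 7.63, 6.47 and 6.82 CPM in slow/slow neurons, and fell by 3.46 ± 0.19 (FDR = 4.3e-11). Of the 11 mesendoderm targets, 5 were higher and 2 lower in NPCs and again in PSA-NCAM+ cells, while 2 were higher and 6 lower in neurons. Over all genes 56.7%, 56.7% and 51.9% were called at these stages, so little is read from these counts. In ESCs, where no test is given, Brachyury had a log2 difference of 1.84 ± 0.20. Tgfb3 and Tgfb2 had the largest falls by the same rule, with -2.49 ± 0.35 and -1.48 ± 0.27. Tgfb3 was low, with 59, 25 and 38 counts in WT and 6, 7 and 4 counts in slow/slow ESCs.

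**Figure D4:**
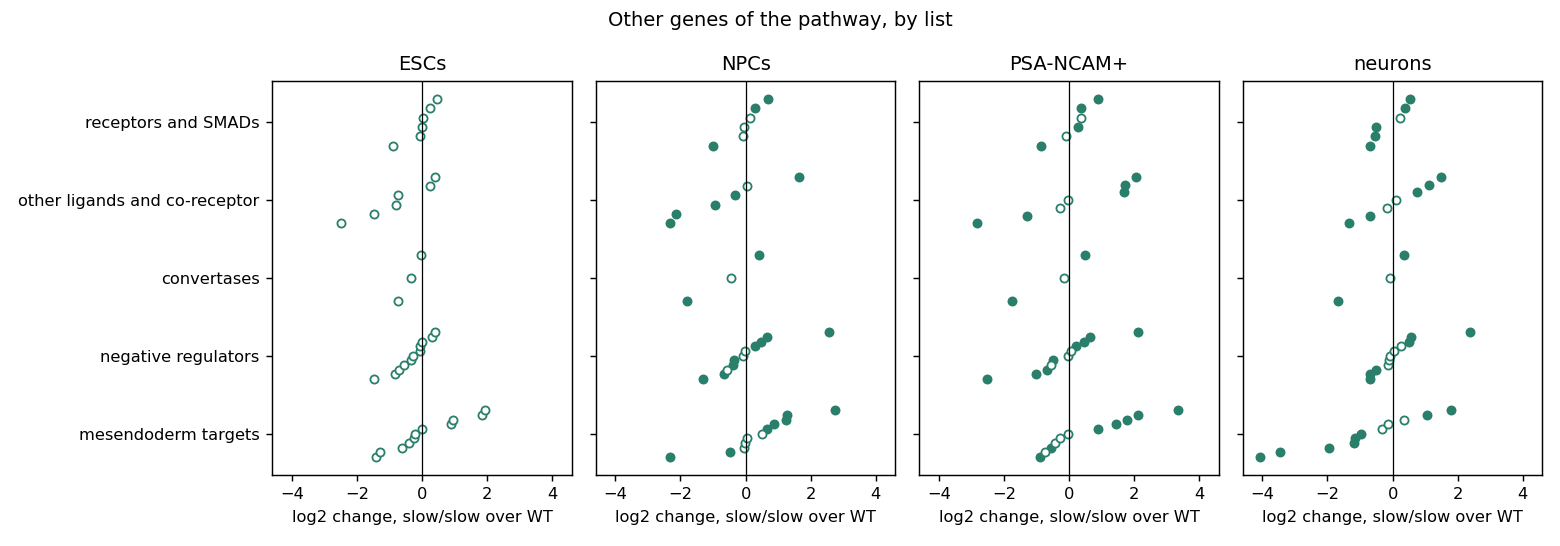
Log2 change, slow/slow over WT, of the other pathway genes that passed the low-count filter, 1 point per gene, in 5 lists and at the 4 stages. Filled points passed an FDR of 0.05, and in ESCs all points are open because no test is given there. Points of every list lie on both sides of 0 in NPCs, PSA-NCAM+ cells and neurons, with the lowest value, -4.07 for Mixl1, among the mesendoderm targets in neurons. Inhba has no point in ESCs and NPCs for lack of counts.

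Markers of cell states moved with genotype at the same stages. The share of all genes called was 56.7% for NPCs, 56.7% for PSA-NCAM+ and 51.9% for neuron samples. Little is therefore read from the numbers of called markers. Primed epiblast markers summed to 320.3 to 327 CPM in WT and 942 to 1083 CPM in slow/slow NPCs. At the PSA-NCAM+ stage they summed to 119 to 213 CPM in WT and 185 to 660.0 CPM in slow/slow cells. Slow/slow replicate 1 of that stage, at 185 CPM, lay inside the WT range. All 5 of these markers were called higher at both stages. Pluripotent markers, 7 genes, summed to 2129 to 2214 CPM in WT and 1319 to 1448 CPM in slow/slow NPCs, 5 of them lower and 0 higher. Mesoderm markers, 6 genes, summed to 223 to 252 CPM in WT and 36.9 to 44.7 CPM in slow/slow NPCs, although 2 of them were called higher and 3 lower, and endoderm markers, 8 genes, to 300.3 to 347 against 409 to 539 CPM. Neural progenitor markers, 4 genes, summed to 37.5 to 38.9 CPM in WT and 124 to 166 CPM in slow/slow NPCs, and all 4 were called higher. In WT these neural markers reached 885 to 1058 CPM in neurons, where neuron markers summed to 3430 to 3740 CPM in WT and 2739 to 2906 CPM in slow/slow cells. Endoderm markers stood lower in ESCs, at 20.1 to 20.2 CPM in WT and 13.9 to 14.9 CPM in slow/slow cells, with Afp and Ttr at no more than 3 counts per library. In NPCs and PSA-NCAM+ cells no marker of any list was that low. From ESCs to NPCs the pluripotent markers stayed well above their level in neurons, as they summed to 5657 to 6126 CPM in WT ESCs and to 204 to 246 CPM in WT neurons. For PSA-NCAM+ cells the mesoderm markers summed to 181 to 257 CPM in WT and 25.6 to 73.4 CPM in slow/slow cells, with 1 called higher and 2 lower, and the 6 neuron markers to 69.6 to 95.9 and 207 to 520.3 CPM, all 6 called higher. For neurons the mesoderm markers summed to 84.5 to 104 CPM in WT and 24.6 to 30.4 CPM in slow/slow cells, with 2 called higher and 3 lower. The 5 glia markers summed to 66.3 to 87.1 CPM in WT and 17.6 to 18.6 CPM in slow/slow neurons, with 2 called higher and 3 lower. The part of cell state in the changes of Lefty1, Lefty2, Gdf3 and Tdgf1 was not tested.

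The locus of the Lefty genes was examined because both members lie there, with 35918 bases between them, and its neighbours were chosen after their values had been seen. Of the 11 other genes tested within 250 kilobases on either side, 4 were called higher and 1 lower in NPCs. The counts were 5 and 1 for PSA-NCAM+ cells and 3 and 3 for neurons. Over all genes 56.7%, 56.7% and 51.9% were called at these stages, so nothing is read from the counts of neighbours. Their median log2 change was 0.32 for ESCs, 0.28 for NPCs, -0.005 for PSA-NCAM+ and 0.02 for neuron samples, with no value above 1.17. Tmem63a, a membrane channel gene on the far side of Lefty1, rose by 0.77 ± 0.18 in NPCs (FDR = 0.0012) and by 1.17 ± 0.19 in neurons (FDR = 2.97e-05). Ephx1, the next gene and an epoxide hydrolase, fell by 1.62 ± 0.28 in NPCs (FDR = 6.12e-05), and in neurons its log2 change was -3.92 ± 0.30 (FDR = 2.48e-09).

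**Figure D5:**
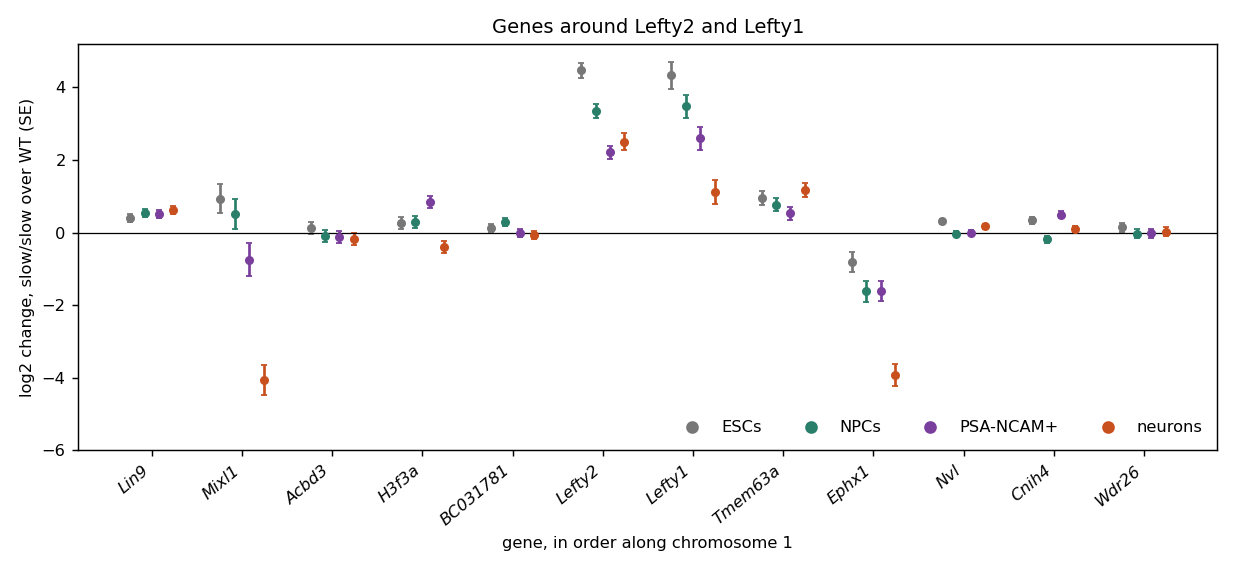
Log2 change, slow/slow over WT, with bars of 1 SE, of Lefty2, Lefty1 and 10 of the other tested genes within 250 kilobases of them, in their order along chromosome 1 and at the 4 stages. Lefty2 and Lefty1 stand above all the others shown in ESCs, NPCs and PSA-NCAM+ cells, and in neurons Tmem63a at 1.17 is level with Lefty1 at 1.11.

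Splicing of the members was covered thinly. Only the retention of introns was tested, and the exon of Tdgf1 and the alternative splice sites listed for members were not. Introns were called when the mean percent of retained transcripts (PSI) differed by more than 10 points with a posterior probability over 0.95. Of the members' introns, those of Nodal, Foxh1 and Gdf3 could be tested, 5 in ESCs and NPCs, 4 in PSA-NCAM+ and 3 in neuron samples. At each stage 0 of them were called. Over all introns 0.0529% were called for ESCs, 0.318% for NPCs, 0.0817% for PSA-NCAM+ and 0.261% for neuron samples, so that nothing is read from the absence of calls among 5. With limma the members also had 0 calls at every stage. PSI of the Nodal introns lay between 0.07 and 2.08 in ESCs and NPCs, and the 88-base intron of Foxh1 (mm9 chromosome 15, 76499571 to 76499658) had 1.85, 1.26 and 1.56 in WT and 2.99, 2.08 and 4.16 in slow/slow NPCs. The introns of Lefty1, Lefty2 and Cer1 did not pass the filters on reads and junction balance, so their retention was not assessed here.

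By pattern over the 8 groups, the genes nearest to a member were close for some and distant for others. The distance is the root mean square difference of the centred log2 CPM, so that 0 is an identical pattern. The values were not scaled, so genes that vary more over the groups tend to lie farther from others. Nearest to Nodal were Gm13152, 1190003J15Rik and 2610305D13Rik, at 0.226, 0.262 and 0.290. Foxh1 had Slc2a3, a glucose transporter, at 0.229, with Zfp600 and Pnldc1 at 0.276 and 0.291. Tdgf1 had Fam178b, Syce1 and Rbmxl2 at 0.292, 0.295 and 0.296, and Cer1 had Dbh, which makes noradrenaline, at 0.299, with Tppp3 and Dcdc2a at 0.453 and 0.466. For Lefty2, whose pattern includes the ESC level that chose the set, the nearest were Tex13 at 0.741, Olfr985 at 1.14 and Irak3 at 1.15. For Lefty1 they were Fgf1, a growth factor, at 0.946 and Ripply1 at 1.04. For Gdf3 they were Syce1, Gm10323 and Gm10139, at 0.547, 0.552 and 0.567.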

How the data were processed

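Gene counts, splicing values and mean expression were taken for 24 samples, 3 of each genotype and stage. Per the labels, libraries were made with a TruSeq stranded kit, and per the study's methods they were sequenced from both ends and mapped to mm9. Whether counting used strand was not given in the sources used here. The authors deposited raw counts per gene (vast-tools, not normalised), RPKM as their mean per group, and PSI (percent) with quality strings. Deposited fold changes and calls of the authors were not used. Of 22667 genes listed, 1114 had no value. Total counts were 32974432 to 104466886 per sample.

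Counts were tested with edgeR 4.0.16 in R 4.3.3 (filterByExpr, TMM, quasi-likelihood F test, 1 model of 8 groups, Benjamini-Hochberg FDR under 0.05), which left 16 residual degrees of freedom. The members, lists and tests were chosen with earlier results of these data known. Named were all members, and per stage the 2 largest rises and 2 largest falls among called genes of the pathway lists. Likeness to a member used log2 CPM with a prior count of 2. No fold is given where a group's median count was under 3. Introns were compared by a posterior for the difference in PSI, computed from the deposited PSI and reads. An intron entered where each of the 6 samples had 15 or more reads and passed the balance of its junctions (deposited p-value not under 0.05), and introns were also tested with limma 3.58.1. DESeq2 1.42.0 was an alternative for counts, beside other scalings, no filter, a replicate block, fits on only the groups compared and leaving out each sample. Same-numbered PSA-NCAM+ samples of the genotypes deviated together (correlations of 0.540, 0.455 and 0.401), and those of other stages did not (-0.0841 to 0.0677). Deviations from a mean of 3 depend on each other, and replicate 1 was the farthest in both genotypes. The correlations therefore do not show that replicates 2 and 3 are paired by number. The edgeR and intron tests were tested on simulated data. Some genes and sequences are not reported here.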

Additional observations from a re-analysis of the deposited data

Results flagged for a closer look

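The genotype difference of the members other than Cer1, which had too few counts in NPCs, differed between stages in at least 1 interaction test of edgeR, with the values given in log2 units as the later stage minus NPCs. Between NPCs and PSA-NCAM+ cells, where 14.6% of all genes were called, this held for Lefty2, with -1.15 (FDR = 0.00456), and for Tdgf1, with -1.36 (FDR = 0.000267). Between NPCs and neurons, where 55.1% of all genes were called, it held for Lefty1, with -2.37 (FDR = 0.000148), Gdf3, with -1.64 (FDR = 6.77e-05), Lefty2, with -0.85 (FDR = 0.02), Foxh1, with -0.81 (FDR = 0.0169), and Nodal, with -0.76 (FDR = 0.00045). The calls of Lefty2 and Foxh1 in neurons were lost under upper-quartile scaling (both FDR = 0.0609). Groups held 3 samples each, so that single samples were not tested as outliers.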

How the results depend on the processing

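Of 1063 member values recomputed under an alternative, 1019 kept their direction and their side of the threshold, or moved by less than the spread of the replicates where no test is given. 13 lost their call, 20 gained one and 11 changed sign, none of the last a called value. With the replicate block in the model 0 of 80 member values changed their call, and with the block and only the PSA-NCAM+ samples 5 members were called, as without it. Counts of members in this paragraph include Cer1. Signs changed for Gdf3 in neurons (0.06 under upper-quartile scaling, -0.18 to 0.03 without single samples) and for Foxh1 from ESCs to NPCs in slow/slow cells (0.02, and -0.12 to 0.02). They also changed for the interaction of Nodal between NPCs and PSA-NCAM+ cells (-0.02 under upper-quartile scaling, -0.18 without replicate 1 of both genotypes, chosen after seeing the data, and -0.12 to 0.14 without single samples), for that of Gdf3 (0.03 without replicate 1 of both genotypes) and for that of Tdgf1 in neurons (-0.07 to 0.30). With only the groups compared, 6 members and 25 pathway genes were called in ESCs in place of 3 and 16. Over all genes 8961 of 14368 were called there in place of 6720 of 16627. In PSA-NCAM+ cells that fit called 13 pathway genes in place of 26, and 3641 genes in place of 9424. With the replicate block added to that fit, which assumes that the numbers pair the PSA-NCAM+ samples, the counts were 20 pathway genes and 6473 genes. Without the block, fits of only the groups compared called 2525 genes in place of 7033 from NPCs to PSA-NCAM+ cells in slow/slow cells and 668 in place of 2421 in that interaction. Without replicate 1 of both genotypes the interaction called 5200 genes, and without slow/slow replicate 1 alone 4248. Of the members 3 were called in the interaction of neurons under upper-quartile scaling and 3 to 6 without single samples, in place of 5. In the main fit 55.1% of all genes were called in that interaction. The causes were not tested. Leaving out each sample gave 4 to 6 called members in neurons, 5 to 7 in PSA-NCAM+ cells, 3 to 4 in NPCs and 2 in ESCs. The shares of all genes called in the main fit were 51.9%, 56.7%, 56.7% and 40.4% at these stages. With a prior count of 0.5 the 3 nearest genes shared 1 with those named for Lefty1 and Gdf3 and 0 for Cer1. With at least 30 reads no member intron could be tested in neurons. Depth limits Cer1, whose counts were under 10 per library in ESCs and NPCs.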
